A study of Mus musculus with 7 samples.

Results

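The arginine tRNAs described here are those of the 4 anticodon families ACG, CCG, CCT and TCG. They lack the intron carried by genes of the fifth mouse arginine family, Arg-TCT (5 unspliced and 4 spliced rows). The members were taken by name from a table of estimated read counts: every row for a tRNA gene named tRNA-Arg- with one of the 4 anticodons was kept, which gave 14 of the 224 tRNA rows and of the 3894 rows that stand for whole RNAs. There are 3 rows of tRNA-Arg-ACG, 3 of tRNA-Arg-CCG, 4 of tRNA-Arg-CCT and 4 of tRNA-Arg-TCG, and each row is 1 isodecoder (tRNAs with the same anticodon but a different body). All 14 rows passed the minimum of 100 counts in every comparison.

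RNA came from RAW264.7, a mouse macrophage cell line, and was read by a template-switching reverse transcriptase protocol, in which the enzyme copies structured RNA such as tRNA end to end. Whole-cell RNA was sequenced from a line with a non-silencing hairpin (shNS) and from a line with a hairpin against Dis3l2 (shDis3l2). RNA of extracellular vesicles (EVs) was sequenced from these same lines and from shDis3l2 cells that also expressed an empty vector (Vector), a hairpin-resistant Dis3l2 transgene (Dis3l2r) or the catalytically inactive Dis3l2 D389N. Every culture received doxycycline at 1 µg/mL, and the medium for EVs was collected over 24 h, banded on a sucrose gradient and digested with micrococcal nuclease before lysis. Each of the 7 groups has 1 library, so no difference between a pair of libraries has a replicate check, and intervals given for a pair cover counting error only. The labels name rRNA depletion for the whole-cell RNA only. The table pairs no transcript with a gene symbol, so the level of Dis3l2 and the macrophage markers could not be checked against the labels.

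Arginine is written by several codons, and its tRNAs divide them by anticodon. Arg-ACG, whose first anticodon base is edited to inosine, reads CGU, CGC and CGA; Arg-CCG reads CGG; Arg-TCG reads CGA; and Arg-CCT reads AGG, while Arg-TCT reads AGA. These RNAs are made by RNA polymerase III, trimmed at both ends and given a CCA tail. Dis3l2 is a 3′ to 5′ exoribonuclease that degrades RNAs with an added uridine tail, and tRNA transcripts that fail to mature are among its known substrates. Short RNA polymerase III transcripts, tRNAs among them, are known as abundant cargo of EVs.

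RefSeq places 19 loci of these families on 9 chromosomes of GRCm38.p6, and all are 73 bp long. Counts were not corrected for length, and how estimated counts were divided between rows of like sequence was not tested. The 5 Arg-TCT loci measure 74 to 87 bp. The largest group lies on chromosome 13, where 7 loci of Arg-ACG, Arg-CCG and Arg-TCG fall within 2.31 Mb, from n-TRccg3 (chr13:21215458-21215530) to n-TRtcg1 (chr13:23526456-23526528). On chromosome 11, n-TRcct5, n-TRcct3 and n-TRtcg4 share 871 bp (chr11:115412981-115413851). On chromosome 17, n-TRcct2 (chr17:23548768-23548840) and n-TRccg2 (chr17:23550263-23550335) together span 1568 bp. Of the 19 loci, 16 overlap no other RefSeq gene, and 3 do: n-TRccg3 overlaps Gm32420, n-TRtcg1 overlaps Gm11335, and n-TRtcg5 (chr7:79466419-79466491) overlaps Polg, which encodes the mitochondrial DNA polymerase. The sources do not pair the table's row names with RefSeq symbols, so no row is placed at a locus here.

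Depth on the whole-RNA rows ran from 13439408 counts (Dis3l2r EVs) to 37041326 counts (shNS cells). Named tRNA rows took 13.7% and 9.09% of the counts of shNS and shDis3l2 cells and 70.2% to 76.9% in the 5 EV libraries. One unnamed transcript, ENSMUST00000083988, took 19.3% of the counts of shNS cells, 46.1% of those of shDis3l2 cells and 2.08% to 8.30% of those of EVs. The shNS cells had 27300 counts on exon pieces, against 275220 to 555760 in the other libraries. Levels are given as CPM, the counts scaled to a common total of whole-RNA counts in each library.

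The tRNA-Arg-CCG family, the reader of CGG, was the most abundant of the 4 families in all 5 EV libraries. It stood at 58273 CPM in shNS EVs, 53214 in shDis3l2 EVs, 52330 in Vector EVs, 61789 in Dis3l2r EVs and 70399 in D389N EVs, against 2852 CPM in shNS cells and 5344 in shDis3l2 cells. EV and cell values did not overlap. Among the 51 tRNA families it ranked 16 in shNS cells, 3 in shDis3l2 cells, and between 2 and 3 in every EV library.

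The tRNA-Arg-ACG family, which reads most CGN codons, led the 4 families in shNS cells with 4135 CPM and stood behind Arg-CCG and Arg-CCT in shDis3l2 cells, at 2131 CPM. Its EV levels were 20582 CPM in shNS, 17956 in Vector, 17183 in D389N, 16250 in Dis3l2r and 14837 in shDis3l2. The highest EV value was 1.39 times the lowest, beside 1.35 times for Arg-CCG and 1.25 times for Arg-CCT, and the shDis3l2 EVs were the lowest.

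The tRNA-Arg-CCT family, the reader of AGG, stood at 2783 CPM in shNS cells and 4944 in shDis3l2 cells. Its EV levels ran from 14055 CPM in shNS through 15148 in Vector, 15253 in shDis3l2 and 16698 in D389N to 17627 in Dis3l2r. The Dis3l2r and D389N EVs were the highest and the shNS EVs the lowest. Arg-CCT ranked 17 of 51 families in shNS cells and 4 in shDis3l2 cells, against 11 to 16 in EVs.

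The tRNA-Arg-TCG family, the reader of CGA, was the least abundant of the 4 families in every library. It stood at 2066 CPM in shNS cells and 920 in shDis3l2 cells. In EVs it stood at 6379 CPM for shNS, 5198 for shDis3l2 and 6563 for Vector, against 3069 for Dis3l2r and 2461 for D389N. The Dis3l2r and D389N EVs were thus lower than the other 3 EV libraries, with no value in between.

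**Figure D1:**
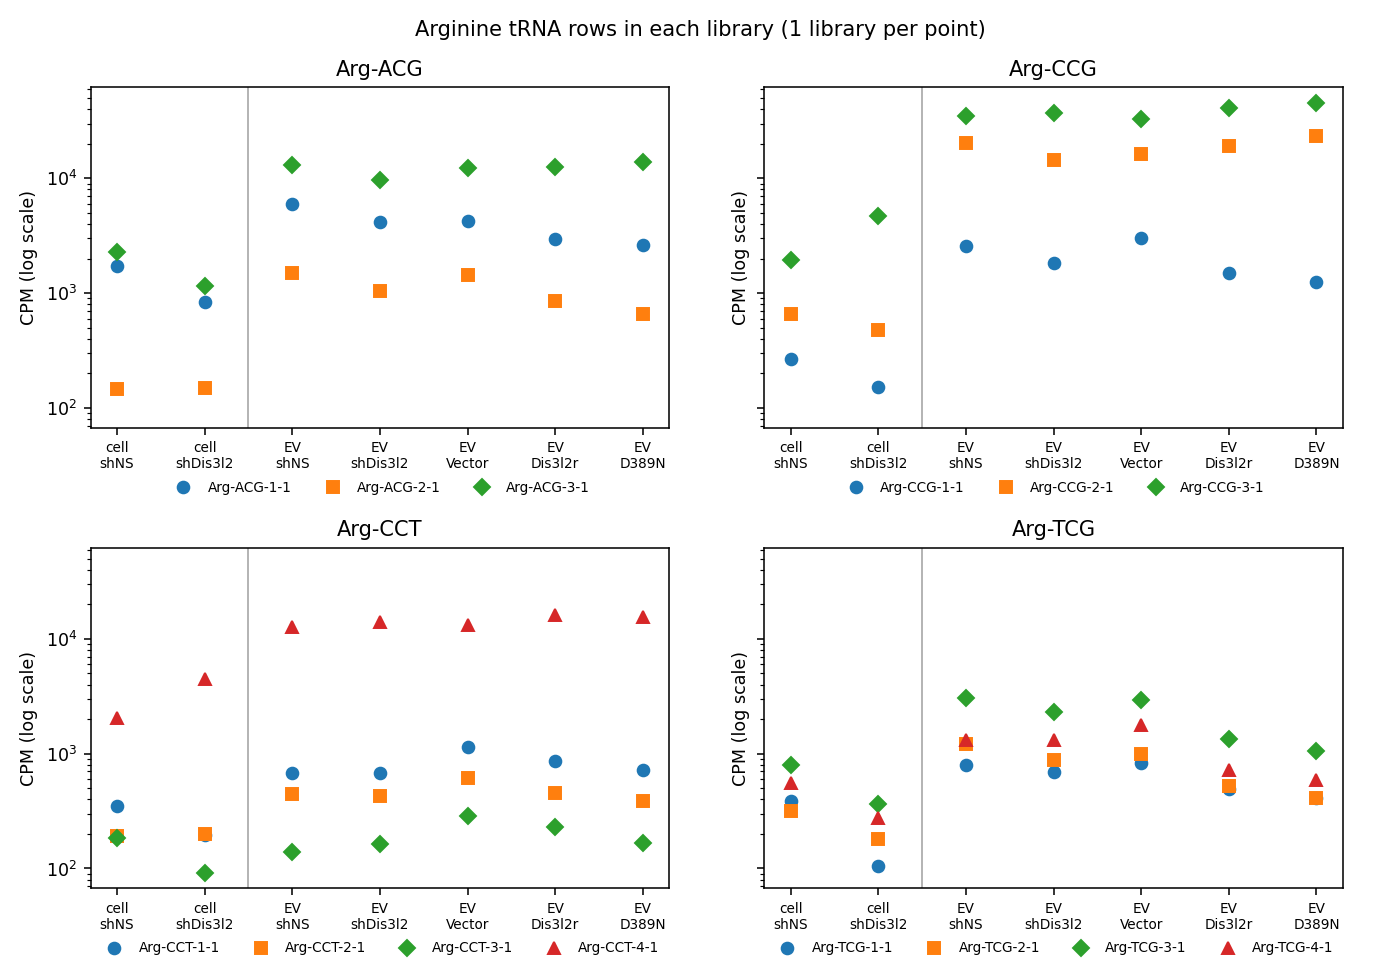
Level of each of the 14 arginine tRNA rows in the 7 libraries, in CPM on a log axis, with 1 panel per anticodon family and 1 point per library; the grey line divides cells from EVs. Arg-CCG-3-1 is the highest row in every EV library, at 32895 to 45560 CPM, and all 4 Arg-TCG rows are lower in Dis3l2r and D389N EVs than in the other EVs.

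Each of Arg-ACG, Arg-CCG and Arg-CCT rested mainly on 1 or 2 rows. tRNA-Arg-CCG-3-1 stood at 35217 CPM in shNS EVs, 37012 in shDis3l2 EVs, 32895 in Vector EVs, 40985 in Dis3l2r EVs and 45560 in D389N EVs, against 1925 in shNS cells and 4713 in shDis3l2 cells. tRNA-Arg-CCG-2-1 stood at 20461, 14387, 16401, 19292 and 23587 CPM in the same 5 EV libraries and at 659 and 478 CPM in the cells. Both rows were far higher in every EV library than in either cell library, but in cells CCG-3-1 was higher in shDis3l2 than in shNS while CCG-2-1 was lower. The remaining row, tRNA-Arg-CCG-1-1, never passed 3034 CPM, its level in Vector EVs.

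Within Arg-CCT, tRNA-Arg-CCT-4-1 carried 86.5% to 92.3% of the family's counts in EVs, 73.8% in shNS cells and 90.1% in shDis3l2 cells. Its level was 2053 CPM in shNS cells and 4454 in shDis3l2 cells, and in EVs 12789 in shNS, 13105 in Vector, 13979 in shDis3l2, 15420 in D389N and 16073 in Dis3l2r. The lowest member in EVs was tRNA-Arg-CCT-3-1, which ran from 139 to 288 CPM there and stood at 185 CPM in shNS cells and 91.8 in shDis3l2 cells. It was the only row whose EV and cell levels overlapped.

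Within Arg-ACG, tRNA-Arg-ACG-3-1 stood at 2282 and 1143 CPM in shNS and shDis3l2 cells and between 9676 CPM (shDis3l2) and 13922 CPM (D389N) in EVs. tRNA-Arg-ACG-1-1 stood at 1708 and 839 CPM in the cells and fell between 2606 CPM (D389N) and 5979 CPM (shNS) in EVs. tRNA-Arg-ACG-2-1, the minor row, stood at 145 and 149 CPM in the cells and between 655 CPM (D389N) and 1506 CPM (shNS) in EVs.

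The Arg-TCG counts were spread more evenly: tRNA-Arg-TCG-3-1 held 42.7% to 48.0% of the family in EVs and 38.7% and 39.4% in cells, and the other 3 rows held the rest. tRNA-Arg-TCG-3-1 stood at 799 CPM in shNS cells and 363 in shDis3l2 cells, and in EVs at 3059 in shNS, 2952 in Vector, 2293 in shDis3l2, 1336 in Dis3l2r and 1052 in D389N. tRNA-Arg-TCG-4-1 stood at 557 and 274 CPM in the same cells, and in EVs at 1779 in Vector, 1328 in shDis3l2, 1309 in shNS, 720 in Dis3l2r and 590 in D389N. tRNA-Arg-TCG-2-1 stood at 320 and 179 CPM in cells, and in EVs at 1205 in shNS, 998 in Vector, 887 in shDis3l2, 519 in Dis3l2r and 410.5 in D389N. The order was alike in all 3 rows: cells lowest, then D389N and Dis3l2r EVs, then the other 3 EV libraries. tRNA-Arg-TCG-1-1 stood at 391 CPM in shNS cells and 104 in shDis3l2 cells, and at 409 (D389N) to 835 (Vector) in EVs, so that its lowest EV value was just above its shNS cell value.

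The share that an isodecoder takes of its own family does not depend on how libraries are scaled. For 5 of the 14 rows this share did not overlap between the 5 EV and the 2 cell libraries, where 62.9% of the 175 tRNA rows so measured showed no overlap (34.9% higher and 28.0% lower in EVs). The shares of ACG-3-1 (63.6% to 81.0% in EVs, 53.7% and 55.2% in cells), CCG-2-1 (27.0% to 35.1%, against 8.95% and 23.1%) and TCG-3-1 were higher in EVs. Those of ACG-1-1 (15.2% to 29.1%, against 39.4% and 41.3%) and CCT-2-1 (2.30% to 4.05%, against 4.08% and 6.92%) were lower in EVs. With 5 libraries against 2, the smallest p a two-sided exact permutation test of a share can give is 0.0952, so none could pass 0.05.

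**Figure D2:**
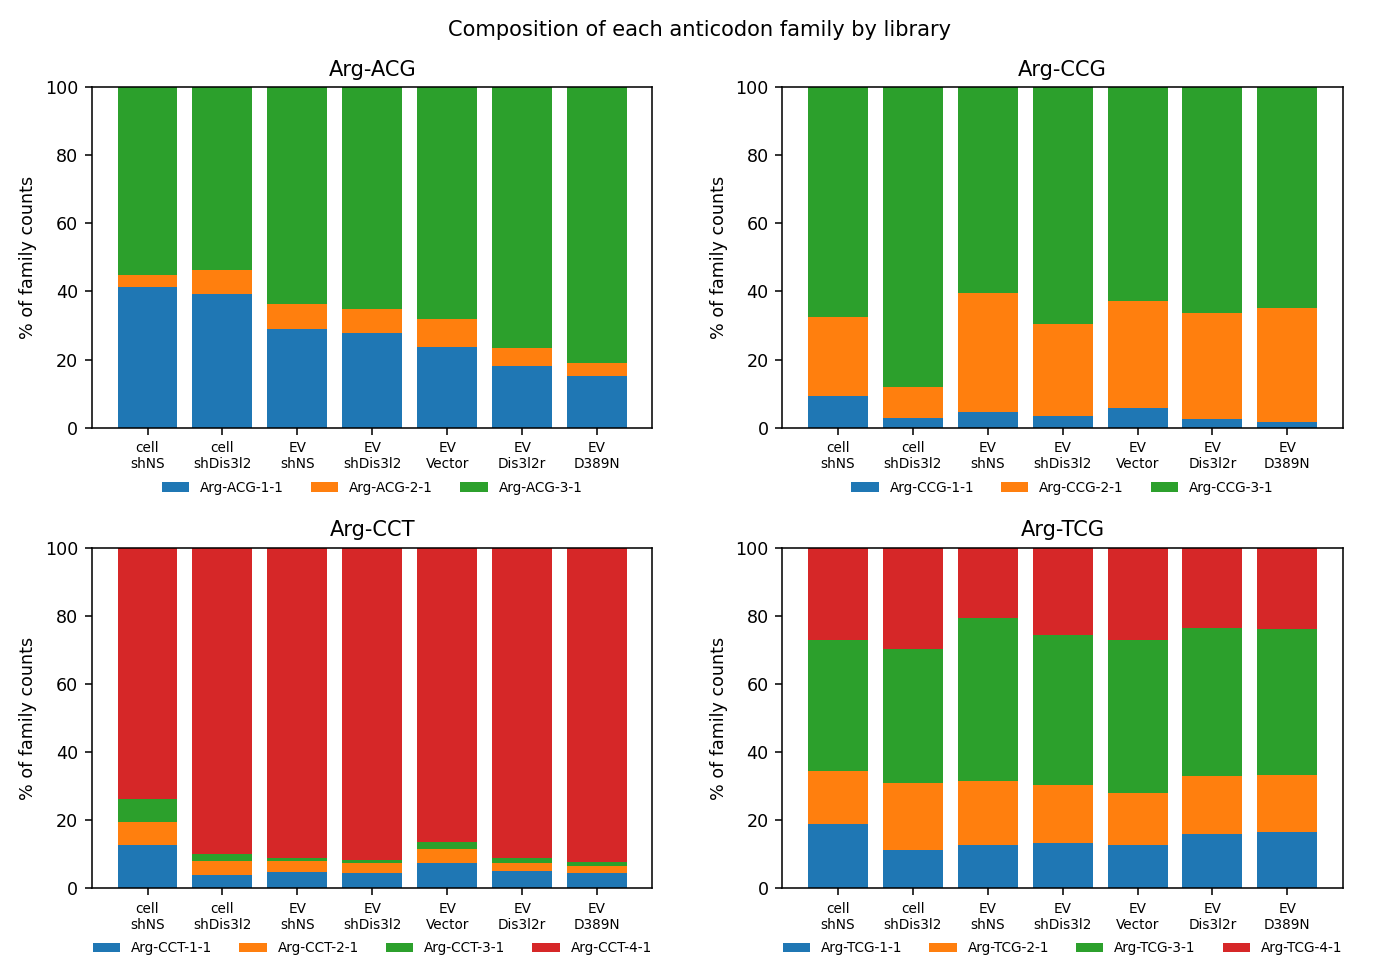
Share of each isodecoder row in the counts of its anticodon family, in percent (0 to 100), with 1 stacked bar per library and 1 panel per family. ACG-1-1 takes 39.4% and 41.3% of Arg-ACG in cells and 15.2% to 29.1% in EVs, and CCG-2-1 takes 8.95% and 23.1% of Arg-CCG in cells and 27.0% to 35.1% in EVs.

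Set against all named tRNA, the 4 families together held 8.62% of tRNA counts in shNS cells and 14.7% in shDis3l2 cells. In EVs they held 12.0% (Vector), 12.5% (shDis3l2), 13.2% (shNS), 14.1% (Dis3l2r) and 14.3% (D389N). The shNS cells were the lowest and the shDis3l2 cells the highest, with all EV libraries in between. Of all arginine tRNA counts, spliced and unspliced Arg-TCT included, these families made up 88.3% to 98.1%.

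The first comparison asked how EVs differ from the cells that release them. Measured against all whole-RNA counts, the arginine tRNAs were higher in EVs: summed over the 4 families, the log2 ratio of EVs to cells was 3.07 in shNS and 2.73 in shDis3l2. Arg-CCG showed the largest ratio of the 4 families in both lines, 4.35 in shNS (a 20.4-fold difference) and 3.32 in shDis3l2. In shNS, Arg-CCT followed at 2.34, Arg-ACG at 2.32 and Arg-TCG at 1.63. In shDis3l2 the order after Arg-CCG was Arg-ACG at 2.80, Arg-TCG at 2.50 and Arg-CCT at 1.63. A lower value from fewer EVs of a kind and one from less of the RNA in each cannot be told apart in bulk RNA.

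A rule of size stood in for a test: a row passed where the pair of libraries held 100 or more of its counts, its levels differed by 2-fold or more, and the 95% interval of the ratio left out 1. By this rule 12 of the 14 rows were higher and 0 lower in shNS EVs, where 32.0% of the 531 rows measured were higher and 59.5% lower (91.5% in either direction). In shDis3l2, 13 of 14 were higher and 0 lower, where 33.1% of 525 were higher and 58.1% lower (91.2% in either direction). The members' median log2 ratio was 1.93 in shNS and 2.48 in shDis3l2, beside 1.93 and 2.65 for the other tRNA rows and -3.28 and -2.86 for all whole-RNA rows. The members' medians thus lay at or below those of the other tRNA rows and above that of all rows. Divided by tRNA totals instead, 2 members were higher and 5 lower in shNS, where 52 of 531 rows were higher and 383 lower. In shDis3l2, 1 member was then higher and 4 lower, where 44 of 525 rows were higher and 379 lower. Divided by exon-piece totals, 0 members were higher and 12 lower in shNS, where 13 of 531 rows were higher and 480 lower. With exon pieces in shDis3l2, 13 members were higher and 0 lower, where 178 of 525 rows were higher and 302 lower.

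tRNA-Arg-CCG-2-1 had the largest ratio of the 14, at 4.96 in shNS (95% interval 4.94 to 4.98) and 4.91 in shDis3l2 (4.89 to 4.93). tRNA-Arg-CCG-3-1 was higher by 4.19 in shNS and by 2.97 in shDis3l2. tRNA-Arg-CCG-1-1 stood at 3.27 and 3.57, tRNA-Arg-ACG-2-1 at 3.37 and 2.80, and tRNA-Arg-ACG-3-1 at 2.52 and 3.08. At the low end, tRNA-Arg-CCT-1-1 (0.95) and tRNA-Arg-CCT-3-1 (-0.42) did not pass the rule in shNS, and tRNA-Arg-CCT-3-1 (0.83) did not pass it in shDis3l2. The main row of the family, tRNA-Arg-CCT-4-1, stood at 2.64 in shNS, above its 3 minor rows, and at 1.65 in shDis3l2, below the 1.79 of tRNA-Arg-CCT-1-1.

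**Figure D3:**
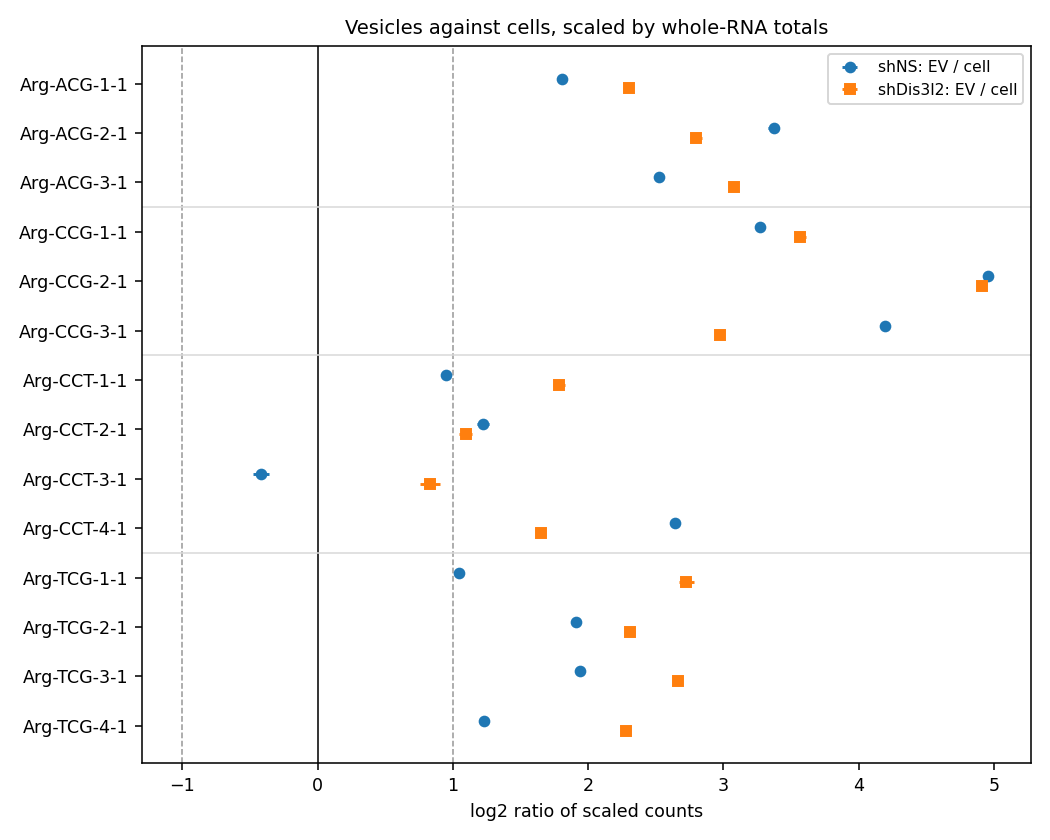
Log2 ratio of EV to cell counts for each of the 14 rows, scaled by whole-RNA totals, in the shNS and the shDis3l2 line; bars are exact 95% intervals for counting error, mostly narrower than the symbols, and dashed lines mark 2-fold. CCG-2-1 lies farthest to the right in both lines (4.96 and 4.91), and CCT-3-1 is the only row left of 0, at -0.42 in shNS.

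Over all 7 libraries, edgeR's quasi-likelihood test with Benjamini-Hochberg adjustment compared the 5 EV libraries with the 2 from cells, allowing for whether the genotype has active Dis3l2. It called 13 of the 14 rows higher in EVs and 0 lower, where 31.2% of 642 rows were called higher and 47.7% lower (78.8% in either direction). tRNA-Arg-CCG-2-1 was higher by a log2 fold change of 5.09 (SE 0.510, adjusted p = 1.25e-06 by edgeR), tRNA-Arg-CCG-3-1 by 3.57 (SE 0.502, adjusted p = 2.77e-05) and tRNA-Arg-ACG-3-1 by 2.93 (SE 0.459, adjusted p = 7.09e-05). tRNA-Arg-CCT-4-1 was higher by 2.16 (SE 0.443, adjusted p = 0.000638 by edgeR). The other rows called were CCG-1-1 at 3.33, ACG-2-1 at 2.91, ACG-1-1 at 1.76, CCT-1-1 at 1.62, CCT-2-1 at 1.24 and the 4 Arg-TCG rows between 1.50 and 1.99. tRNA-Arg-CCT-3-1 was not called, at 0.56 (edgeR adjusted p = 0.335). The members' median was 1.88, beside 2.29 for the other 197 tRNA rows, of which 136 were called higher and 9 lower. The libraries of one side differ in genotype and are not replicates. Without the shDis3l2 cells, which leaves 1 cell library, the members' median was 1.45, beside -0.21 for all rows tested.

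Measured against named tRNA alone, the picture within the arginine families was different. The share of Arg-CCG in tRNA counts was higher in EVs by a log2 ratio of 1.90 in shNS and 0.35 in shDis3l2. Arg-ACG stood at -0.14 and -0.16, Arg-CCT at -0.11 and -1.34, and Arg-TCG at -0.82 and -0.47. In the edgeR test scaled to tRNA totals, 1 member was called higher and 5 lower, where 44 of 642 rows were called higher and 385 lower. tRNA-Arg-CCG-2-1 was higher by 2.35 (SE 0.386, edgeR adjusted p = 0.000472), whereas ACG-1-1, CCT-1-1, CCT-2-1, CCT-3-1 and TCG-4-1 were lower, at -0.96 to -2.13. CCG-2-1 was thus called higher in EVs under both scalings, and the other rows called higher against whole RNA were either not called or called lower against tRNA.

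The next comparison asked what the Dis3l2 hairpin changed in whole cells. Here 2 rows, both the main row of their family, were higher in shDis3l2 cells and 1 was lower. tRNA-Arg-CCG-3-1 went from 1925 to 4713 CPM, a log2 ratio of 1.56 after TMM scaling (95% interval 1.55 to 1.57). tRNA-Arg-CCT-4-1 went from 2053 to 4454 CPM, a log2 ratio of 1.38, and tRNA-Arg-TCG-1-1 went from 391 to 104 CPM, a log2 ratio of -1.64. By the rule of size 35.7% of 513 rows passed, 11.7% as higher and 24.0% as lower. Of the 14 members, 10 had a ratio below 0, with a median of -0.57, beside -0.41 for the other tRNA rows and -0.17 for all rows.

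As families, Arg-CCG (1.17) and Arg-CCT (1.10) were higher in shDis3l2 cells, and Arg-ACG (-0.69) and Arg-TCG (-0.90) were lower by less than 2-fold. Of the 48 tRNA families measured, 2 passed the rule as higher and 8 as lower. These 2 were Arg-CCG and Arg-CCT. CCG-3-1 and CCT-4-1, singled out after their values were seen, together made up 2.90% of tRNA counts in shNS cells and 10.1% in shDis3l2 cells. The other 12 rows together went from 5.73% to 4.59%. The shDis3l2 cells are also the library with 46.1% of its counts on ENSMUST00000083988 and a smaller share of tRNA, and the part of these in the differences was not tested; as shares of tRNA, Arg-CCG and Arg-CCT were higher by 1.50 and 1.42. Scaled by whole-RNA totals, 5 members instead of 1 were lower, while CCG-3-1 and CCT-4-1 again were the 2 higher members. By that scaling 33 of 513 rows were higher and 179 lower. Scaled by exon pieces, of which the shNS cells have few, all 14 members were lower, as were 511 of the 513 rows.

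In EVs the same hairpin pair gave no member past the rule of size. The 14 log2 ratios of shDis3l2 to shNS EVs lay between -0.45 and 0.33, and 11.2% of 411 rows passed in either direction (7.06% higher, 4.14% lower). tRNA-Arg-CCG-3-1 stood at 0.17 and tRNA-Arg-CCT-4-1 at 0.22, the same rows that were higher by 1.56 and 1.38 in cells. The family values were -0.38 for Arg-ACG, -0.038 for Arg-CCG, 0.21 for Arg-CCT and -0.20 for Arg-TCG. With 1 library of each kind, the difference between cells and EVs in their response to the hairpin was not tested.

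**Figure D4:**
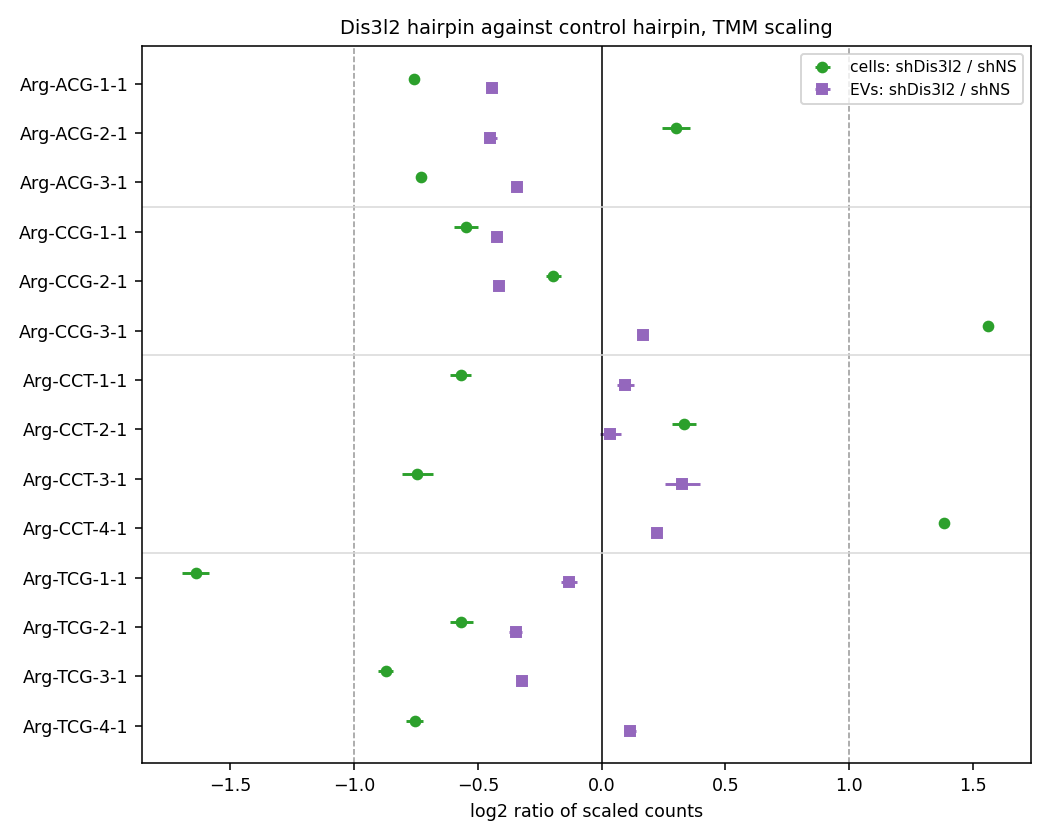
Log2 ratio of shDis3l2 to shNS counts for each of the 14 rows after TMM scaling, in whole cells and in EVs; bars are exact 95% intervals for counting error and dashed lines mark 2-fold. In cells CCG-3-1 (1.56) and CCT-4-1 (1.38) lie right of 2-fold and TCG-1-1 (-1.64) left of it, while all EV ratios lie between -0.45 and 0.33.

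Transgenes were compared in EVs; whole cells of those lines were not analysed here. In Dis3l2r against Vector EVs, 4 rows were lower and 0 higher, where 7.38% of 393 rows were lower and 24.7% higher (32.1% in either direction). They were tRNA-Arg-CCG-1-1 (3034 CPM in Vector and 1512 in Dis3l2r EVs, a log2 ratio of -1.07 after TMM scaling), tRNA-Arg-TCG-2-1 (998 and 519 CPM, -1.01), tRNA-Arg-TCG-3-1 (2952 and 1336 CPM, -1.21) and tRNA-Arg-TCG-4-1 (1779 and 720 CPM, -1.37). The Arg-TCG family was lower by a log2 ratio of -1.17, whereas Arg-ACG (-0.21), Arg-CCG (0.17) and Arg-CCT (0.15) did not pass the rule. Scaled by tRNA totals, only TCG-3-1 (-1.01) and TCG-4-1 (-1.17) passed, CCG-1-1 stood at -0.87, TCG-2-1 at -0.81 and the Arg-TCG family at -0.96; the same 2 rows alone passed when ENSMUST00000083988 was left out of the totals. The other 225 tRNA rows, of which 166 were measured, had 22 lower and 1 higher, and a median of -0.39 beside -0.55 for the members.

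Catalytically inactive D389N gave the same 4 rows as lower against Vector EVs, where 12.4% of 379 rows were lower and 10.8% higher (23.2% in either direction). tRNA-Arg-CCG-1-1 stood at -1.02, tRNA-Arg-TCG-2-1 at -1.03, tRNA-Arg-TCG-3-1 at -1.23 and tRNA-Arg-TCG-4-1 at -1.34. Under the other scalings these 4 rows also passed, with up to 2 more (ACG-2-1 and TCG-1-1), where 50 to 93 of 379 rows were lower. The families stood at -1.16 for Arg-TCG, 0.68 for Arg-CCG, 0.39 for Arg-CCT and 0.19 for Arg-ACG. Both comparisons share the Vector library, so their likeness is not independent. Set directly against Dis3l2r, D389N EVs had no member past the rule of size, where 24.5% of 379 rows passed (2.64% higher, 21.9% lower); Arg-TCG stood at -0.087 and Arg-CCG at 0.42.

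How far 2 libraries of shDis3l2 EVs with no Dis3l2 transgene differ was read from Vector against parental shDis3l2 EVs. Their ratios ran from -0.14 (tRNA-Arg-CCG-3-1) to 0.86 (tRNA-Arg-CCT-3-1), and 0 of 14 rows passed, where 23.9% of 393 rows did (8.91% higher, 15.0% lower). Ratios larger in size than that 0.86 were seen for 0 members in the hairpin pair of EVs, 4 in the Dis3l2r pair and 5 in the D389N pair. Rows other than the members were not counted against this value, which is the largest of the members' own. By the rule of size, 32.1% of all rows measured passed in the Dis3l2r pair, 23.2% in the D389N pair and 11.2% in the hairpin pair of EVs. The Vector library is in the pair that gave 0.86 and in both transgene pairs, so these values are not independent. With the parental shDis3l2 EVs in place of Vector, a choice made after seeing the data, 1 row was lower in Dis3l2r EVs (tRNA-Arg-TCG-4-1, -1.04), where 7.63% of 393 rows were lower and 8.91% higher (16.5% in either direction). In D389N EVs 1 row was higher (tRNA-Arg-CCG-2-1, 1.01), where 13.0% of 385 rows were higher and 14.5% lower (27.5% in either direction). Arg-TCG then stood at -0.91 and -0.78, so that it no longer passed 2-fold in either.

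**Figure D5:**
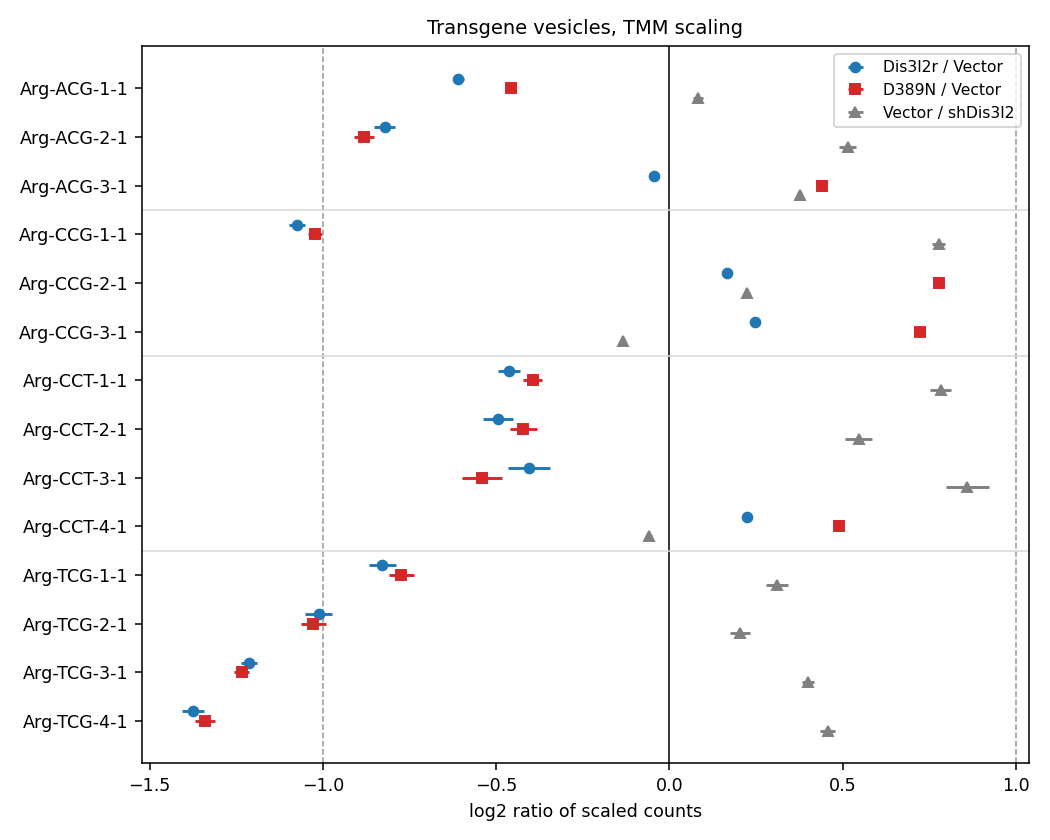
Log2 ratios after TMM scaling for each of the 14 rows in Dis3l2r against Vector EVs, D389N against Vector EVs and Vector against parental shDis3l2 EVs; bars are exact 95% intervals for counting error and dashed lines mark 2-fold. CCG-1-1, TCG-2-1, TCG-3-1 and TCG-4-1 lie left of 2-fold for both transgenes, and the Vector to shDis3l2 ratios run from -0.14 to 0.86.

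In the order of the 5 EV libraries, 7 of the 14 rows had their 2 lowest CPM values in Dis3l2r and D389N EVs: ACG-1-1, ACG-2-1, CCG-1-1 and the 4 Arg-TCG rows. The main rows CCG-3-1 and CCT-4-1 had their 2 highest values there, and 5 rows had neither. This order was counted for the 14 members only, so it is not shown to be particular to them. In Dis3l2r against Vector EVs, 128 of 166 other tRNA rows had a ratio below 0, beside 11 of 14 members. In D389N against Vector EVs, 100 of 171 did, beside 10 of 14 members. The 6 rows of Arg-ACG, Arg-CCG and Arg-CCT other than the main rows and CCG-2-1 (ACG-1-1, ACG-2-1, CCG-1-1, CCT-1-1, CCT-2-1 and CCT-3-1), grouped after their values were seen, held 1.51% of tRNA counts in shNS EVs, 1.16% in shDis3l2, 1.40% in Vector, 0.977% in Dis3l2r and 0.774% in D389N EVs. The largest parts in shNS EVs were ACG-1-1 (0.797%) and CCG-1-1 (0.346%). None of the Arg-CCT rows in this group had its 2 lowest shares in Dis3l2r and D389N EVs. The shares of CCT-1-1 (0.0904%) and CCT-3-1 (0.0185%) were lowest in shNS EVs. That of CCT-2-1 was higher in Dis3l2r EVs (0.0651%) than in shNS EVs (0.0598%).

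A second edgeR quasi-likelihood fit asked whether EV levels follow Dis3l2 activity. By genotype, shNS and Dis3l2r were taken to have active enzyme (2 libraries), and the Vector, D389N and parental shDis3l2 EVs to lack it (3 libraries); no label states activity itself. None of the 14 rows was called, 0 had an unadjusted p under 0.05, and DESeq2 also called 0; among all 575 rows 0.174% were called. The members' log2 fold changes lay between -0.09 (tRNA-Arg-ACG-1-1) and 0.46 (tRNA-Arg-TCG-4-1), with standard errors of 0.349 to 0.499. The fit has 3 residual degrees of freedom.

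The families most like each of these 4 over the 7 libraries were sought among the other 53 spliced and unspliced families, by the root mean square difference of centred log2 shares of tRNA counts, where smaller is more alike. Arg-TCG was closest to Trp-CCA (0.129), Val-AAC (0.142) and Asn-GTT (0.161), with spliced Arg-TCT next (0.176). Arg-ACG was closest to Thr-AGT (0.168), Gly-GCC (0.189) and spliced Leu-CAA (0.220), and Arg-CCT to Glu-CTC (0.303), Ala-AGC (0.330) and Phe-GAA (0.367). Arg-CCG had no neighbour nearer than Gly-CCC (0.410), followed by Lys-TTT (0.422) and Ser-CGA (0.488). None of the 4 had another of the 4 among its 3 closest families. These values are descriptions over 7 libraries that differ in compartment and genotype.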

How the data were processed

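The authors deposited estimated counts per row, in 1 table for the 7 libraries, with no scaling from library to library. The submitters' processing notes name Salmon, Novoalign, UMI-tools and cutadapt, and the builds GRCm38 and mm10. Whether reads were deduplicated was not given in the sources used here, nor were tool versions or the order of steps. Per the labels' protocols, 50 ng of RNA entered each library.

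Counts were rounded for intervals and fits. Only the 3894 whole-RNA rows were compared (exon pieces and other rows served in alternative scalings), and their totals gave depth and CPM. Single libraries were compared as log2 ratios with exact conditional binomial 95% intervals, scaled by totals (EVs against cells) or by TMM, the trimmed mean of M values (all other pairs). Exact (Clopper-Pearson) 95% intervals of shares are narrow at this depth: that of the 4 families in the tRNA of shNS cells is 8.60% to 8.65%. Fits were made in edgeR 4.0.16 (quasi-likelihood, filterByExpr), with a threshold of 0.05 on the adjusted p. They used unscaled totals (EVs against cells, 4 residual degrees of freedom) or TMM (Dis3l2 class). Each SE given for an edgeR fit is the size of the log2 fold change divided by the square root of its F statistic, as the test itself gives none. Software comprised R 4.3.3 with DESeq2 1.42.0, and Python 3.11.15 with scipy 1.17.1, pandas 2.3.3, numpy 2.4.6 and matplotlib 3.10.9; the fits were tested on simulated data. Alternatives were other scalings, other count minimums (20 and 500), isodecoder sums, DESeq2 and leaving out each library. The named rows are all 14 members, and the 3 closest families to each. Members, lists and tests were chosen with earlier results of these data known. Cultures are not described as separate replicates, and reads without deduplication are not independent molecules.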

Additional observations from a re-analysis of the deposited data

Results flagged for a closer look

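Arg-CCG moved apart in the 2 compartments under the same hairpin: its log2 ratio of shDis3l2 to shNS was 1.17 in whole cells and -0.038 in EVs, after TMM scaling in each. The opposite signs drew attention to it. The EV value is close to 0, each value rests on 1 library a side, and the difference was not tested.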

How the results depend on the processing

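The scaling decided most of what changed; the cause was not tested except where the alternative's construction shows it. Divided by tRNA totals, of which EVs hold several times more, EV to cell ratios were lower by construction (the median of all rows moved by -2.45 in shNS and by -2.96 in shDis3l2). The rule of size then took 7 of 14 rows in shNS (2 higher, 5 lower), where 52 of 531 rows were higher and 383 lower. In shDis3l2 it took 5 (1 higher, 4 lower), where 44 of 525 rows were higher and 379 lower. In shNS the ratios that turned were CCT-1-1 -1.50 (which had not passed the rule), ACG-1-1 -0.64, CCT-2-1 -1.23, TCG-1-1 -1.41, TCG-2-1 -0.54, TCG-3-1 -0.51, TCG-4-1 -1.22, and the families Arg-ACG -0.14, Arg-CCT -0.11 and Arg-TCG -0.82. In shDis3l2 they were CCT-3-1 -2.14 (which had not passed the rule), ACG-1-1 -0.67, ACG-2-1 -0.17, CCT-1-1 -1.18, CCT-2-1 -1.87, CCT-4-1 -1.31, TCG-1-1 -0.24, TCG-2-1 -0.66, TCG-3-1 -0.30, TCG-4-1 -0.69, and the families Arg-ACG -0.16, Arg-CCT -1.34 and Arg-TCG -0.47. In the edgeR fit of EVs against cells, tRNA totals left 6 of the 14 rows called, where 429 of 642 rows were called. They turned ACG-1-1 to -0.96, CCT-1-1 to -1.09, CCT-2-1 to -1.51, CCT-3-1 to -2.13, CCT-4-1 to -0.64, TCG-1-1 to -1.06, TCG-2-1 to -0.96, TCG-3-1 to -0.72 and TCG-4-1 to -1.20.

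Scaling by exon pieces, of which the shNS cells hold 27300 counts, moved the median of all rows by -4.48 in shNS EVs against cells and by -4.81 in the hairpin pair of cells. In shNS EVs against cells 12 members were then lower, where 480 of 531 rows were lower. The ratios turned to CCT-1-1 -3.54 (which had not passed the rule), ACG-1-1 -2.67, ACG-2-1 -1.11, ACG-3-1 -1.96, CCG-1-1 -1.21, CCG-3-1 -0.29, CCT-2-1 -3.26, CCT-4-1 -1.84, TCG-1-1 -3.44, TCG-2-1 -2.57, TCG-3-1 -2.54, TCG-4-1 -3.25, and for the families to Arg-ACG -2.17, Arg-CCG -0.13, Arg-CCT -2.15 and Arg-TCG -2.86. In the hairpin pair of cells all 14 members were then lower, as were 511 of 513 rows, with CCG-3-1 at -3.25, CCT-4-1 at -3.43, Arg-CCG at -3.64 and Arg-CCT at -3.71. Exon pieces also gave 10 members (all lower) in Dis3l2r against Vector, where 167 of 393 rows were lower. They gave 1 member (higher) in D389N against Dis3l2r, where 73 of 379 rows were higher. In Vector against shDis3l2 they gave 3 (all higher), where 67 of 393 rows were higher.

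In the hairpin pair of cells, 7 members passed with whole-RNA totals (2 higher, 5 lower), where 33 of 513 rows were higher and 179 lower. When totals took in every row of the table, 8 passed (2 higher, 6 lower), where 28 of 513 rows were higher and 195 lower. When ENSMUST00000083988 was left out of the totals, 108 whole-RNA rows were higher and 74 lower, against 60 and 123. In Dis3l2r against Vector, 2 members passed with totals of tRNA rows and 2 with totals that leave out ENSMUST00000083988. All were lower, where 16 of 393 rows were lower under each of these scalings. Against shDis3l2 EVs, 1 row passed in each transgene pair. As shares of all whole-RNA counts, the 4 families held 1.18% and 1.33% in shNS and shDis3l2 cells. In the EVs (shNS, shDis3l2, Vector, Dis3l2r, D389N) they held 9.93%, 8.85%, 9.20%, 9.87% and 10.7%. Named tRNA as a whole also took a larger share of these counts in EVs than in cells, and the amount of tRNA in EVs was not tested. Leaving out 1 EV library at a time, the edgeR fit of EVs against cells called 11 to 13 of 14 rows, where 471 to 502 of 622 to 631 rows were called. Leaving out a cell library leaves 1, which is assumed to vary like the others. The members' median log2 fold change was then 1.45 without the shDis3l2 cells and 2.35 without the shNS cells, beside -0.21 and -0.26 for all rows tested. TMM called 10, where 485 of 642 rows were called, and DESeq2 called 14, where 543 of 1403 were. Cells and EVs of the shNS and shDis3l2 lines can be paired by line. The fit on these 4 libraries with the line as a term, which has 1 residual degree of freedom, called 13, where 470 of 604 rows were called. The fit on Dis3l2 class called 0 of 14 under every alternative run. Other count minimums could not change the members past the rule of size, as every member had at least 2968 counts in each library. Isodecoder sums could not either, as each member row is 1 isodecoder. In the edgeR fits, isodecoder sums left 13 members called for EVs against cells and 0 for Dis3l2 class. No paired analysis was possible for the other comparisons because each group has 1 library.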
